A study of Homo sapiens with 9 samples.

Results

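The genes described here are 36 genes of cholesterol and fatty acid synthesis, named by symbol and found in the deposited table through their numeric gene identifiers. All 36 were among the 18064 rows of the table, and all 36 passed the filter of at least 1 FPKM (fragments mapped to a gene, scaled to its length and to the library's total) in at least 3 libraries. They comprised 20 enzymes of sterol synthesis, 5 regulators, 4 proteins of sterol transport and efflux, and 7 enzymes of fatty acid synthesis. Bulk RNA sequencing had been done on 9 libraries of human cells, 3 in each of 3 groups. By title the cells were MDA-MB-231/PTX, which, from its name, is a paclitaxel-resistant form of MDA-MB-231, a breast cancer line without hormone receptors or HER2 amplification, grown in medium with fetal bovine serum. The cells had received a control siRNA (group si-NC) or an siRNA named for the RNA BCLIN25, of which there were 2, giving groups si1-BCLIN25 and si2-BCLIN25. The source and treatment fields of the same libraries instead name PC9/GR, a gefitinib-resistant lung adenocarcinoma line, with constructs written as shNC, sh1-HUMT and sh2-HUMT, so the labels do not settle the cells or the target. No label states the dose, the time after transfection or whether replicates were separate cultures, and p-values may therefore reflect technical spread only.

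Cells build cholesterol from acetyl-CoA through mevalonate, isoprenoid diphosphates, squalene and lanosterol. The transcription factors encoded by SREBF1 and SREBF2 drive most of these genes: when membrane sterol falls, SCAP carries the precursor proteins from the endoplasmic reticulum to the Golgi for cleavage, and when sterol is ample, the INSIG proteins hold SCAP back. SREBF2 is known mainly for sterol genes and SREBF1 for fatty acid genes. Excess sterol acts through the LXR receptors, which raise the efflux pumps ABCA1 and ABCG1 and also SREBF1.

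Across the 9 libraries FPKM summed to between 394081 and 419025, and sequencing depth is unknown. The control columns carry a prefix in the header that the siRNA columns lack, so handling and group cannot be told apart. Of 8 epithelial markers, 8 passed the filter, with CDH1 at 31.4 to 46.5 FPKM and sums of 1690 to 1780 FPKM in si-NC against 2380 to 2630 FPKM with either siRNA. In both siRNA groups 4 of them (CDH1, ESRP1, GRHL2 and KRT19) were called higher and 4 (EPCAM, KRT8, KRT18 and CLDN4) lower. Over all genes tested, 38.4% and 38.6% were called higher and 24.6% and 24.4% lower in si1-BCLIN25 and si2-BCLIN25. The higher sum was carried by KRT19, at 654 to 724 FPKM in si-NC and 1515 to 1736 FPKM with either siRNA, while KRT18 went from 296 to 306 FPKM down to 166 to 184 FPKM. Of 10 markers listed for MDA-MB-231, the titled line, 8 passed the filter, at 71.4 to 670 FPKM across the si-NC libraries. The other 2 stayed below 1 FPKM throughout, ZEB1 at or below 0.14 FPKM and SPARC at or below 0.06 FPKM. Against si-NC, 6 of the 8 tested were called lower with either siRNA. Called higher were 1 with the first siRNA and 2 with the other. CAV1 went from 273 to 294 FPKM up to 359 to 388 FPKM. Whether these levels match the titled line was not tested. Of 7 lung adenocarcinoma markers measured, 5 stayed below 1 FPKM in every library, NKX2-1 and NAPSA among them. The 2 that were tested, SFTPB and MUC1, were called higher in both siRNA groups, and the list summed to 1.52 to 2.3 FPKM in si-NC, 4.51 to 4.66 FPKM in si1-BCLIN25 and 4.35 to 4.73 FPKM in si2-BCLIN25. Endothelial and hepatocyte markers (7 and 5 measured) stayed below 1 FPKM throughout.

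Promoters of these genes are shown first, and any link between their motifs and the changes in RNA was not tested. RefSeq gave a promoter window (GRCh38.p14, 250 bases before to 50 after the annotated start) for 31 of the 36 genes. The 200 bases before the start are printed below, 5′ to 3′ on the gene's strand, for the 6 genes with the largest mean rise among those called higher in both siRNA groups, taken from those with a window, followed by SREBF2. Capitals mark CCAAT on either strand (read as ATTGG on the other), the box bound by the factor NF-Y, and in SREBF2 also TCACNCCAC, a form of the sterol regulatory element.
STARD4: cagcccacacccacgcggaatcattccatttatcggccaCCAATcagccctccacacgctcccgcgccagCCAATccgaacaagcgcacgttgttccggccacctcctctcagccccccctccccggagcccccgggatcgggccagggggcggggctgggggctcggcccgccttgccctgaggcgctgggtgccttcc
HMGCS1: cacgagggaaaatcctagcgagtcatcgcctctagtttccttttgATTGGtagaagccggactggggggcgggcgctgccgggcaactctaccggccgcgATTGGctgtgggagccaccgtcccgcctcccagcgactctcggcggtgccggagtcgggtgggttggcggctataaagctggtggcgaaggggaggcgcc
TM7SF2: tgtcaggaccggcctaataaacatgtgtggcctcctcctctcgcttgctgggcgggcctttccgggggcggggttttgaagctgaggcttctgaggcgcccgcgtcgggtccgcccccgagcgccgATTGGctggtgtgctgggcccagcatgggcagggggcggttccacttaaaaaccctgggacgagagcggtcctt
MSMO1: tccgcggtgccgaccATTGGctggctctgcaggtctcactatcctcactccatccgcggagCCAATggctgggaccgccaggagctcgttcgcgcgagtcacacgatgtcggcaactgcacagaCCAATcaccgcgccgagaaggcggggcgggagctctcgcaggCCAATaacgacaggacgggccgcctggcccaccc
FADS2: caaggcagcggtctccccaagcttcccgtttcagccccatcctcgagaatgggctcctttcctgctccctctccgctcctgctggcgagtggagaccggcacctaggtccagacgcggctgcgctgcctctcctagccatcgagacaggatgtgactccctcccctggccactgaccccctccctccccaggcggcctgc
MVK: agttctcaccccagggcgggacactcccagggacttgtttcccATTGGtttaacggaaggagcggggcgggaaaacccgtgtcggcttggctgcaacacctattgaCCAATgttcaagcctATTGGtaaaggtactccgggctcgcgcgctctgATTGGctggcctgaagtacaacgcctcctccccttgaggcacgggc
SREBF2: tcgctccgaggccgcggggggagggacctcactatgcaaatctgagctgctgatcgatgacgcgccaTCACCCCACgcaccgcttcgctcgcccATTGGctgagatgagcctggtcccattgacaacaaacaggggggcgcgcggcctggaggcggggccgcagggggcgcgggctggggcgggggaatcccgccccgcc
The windows lie at chr5:111512536-111512735 (- strand), chr5:43313413-43313612 (- strand), chr11:65111672-65111871 (+ strand), chr4:165327469-165327668 (+ strand), chr11:61816003-61816202 (+ strand), chr12:109573594-109573793 (+ strand) and chr22:41832905-41833104 (+ strand). CCAAT occurred 4 times in the windows printed for MSMO1 and MVK, 2 times in those of STARD4 and HMGCS1, 1 time in those of TM7SF2 and SREBF2, and not in that of FADS2. SREBF2 was added after its match was seen: of the 31 members with a window, it was the only one to hold TCACNCCAC in it. FDFT1, SQLE and FASN were among the members without a window. Other forms of the sterol regulatory element were not searched.

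Over the 31 promoters, 17 (54.8%) held at least 1 CCAAT on either strand, against 36.8% of the 10061 promoters of genes tested and 35.7% of all 27305. At least 3 copies stood in 6 member promoters (19.4%), against 4.91% of promoters of genes tested. Those 6 belonged to MVK, MVD, FDPS, MSMO1, NSDHL and EBP, all enzymes of sterol synthesis. None of the 6 members with 3 or more copies was an enzyme of fatty acid synthesis, a regulator or a transporter. The E-box CACGTG, which SREBF1 proteins can also bind, stood in 5 of 31 (16.1%, against 10.2% of promoters of genes tested), the GC box GGGCGG in 27 (87.1%, against 70.6%) and TCACNCCAC in 1 (3.23%, against 1.12%). Each motif was counted on its own, and the letters of none contain those of another. CCAAT was present in 12 of 18 promoters of members higher in both siRNA groups and in 5 of 13 of the others. At least 3 copies stood in 4 of 18 and 2 of 13, the GC box in 15 and 12, and the E-box in 2 and 3. By role, CCAAT was present in 12 of 17 promoters of sterol synthesis enzymes, whether called or not. No difference between these sets was tested. A match of letters describes the window and does not show that a factor binds there.

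**Figure D1:**
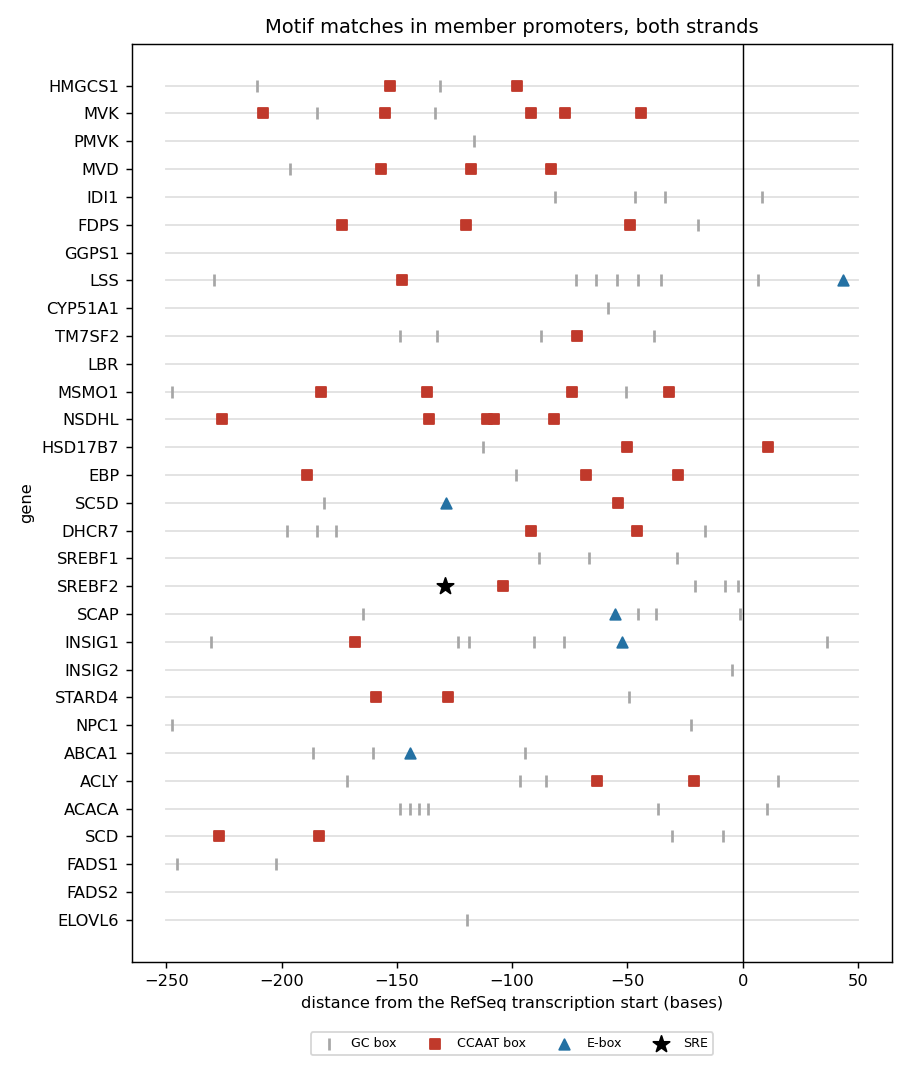
Motif matches on both strands in the 31 member promoters, plotted by distance in bases from the RefSeq start (vertical line). Red squares (CCAAT) lie mostly in the sterol enzymes from HMGCS1 to DHCR7, and the single star (TCACNCCAC) lies in SREBF2.

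Most of the 36 genes were higher in both siRNA groups than in si-NC, by modest amounts. The words rose, fell and called are used where the limma adjusted p, over all 12317 genes tested, was below 0.05. In si1-BCLIN25, 27 rose and 4 fell, beside 38.4% of all genes tested that were called higher and 24.6% called lower. In si2-BCLIN25, 23 rose and 5 fell, beside 38.6% and 24.4% of all genes. Called with a change of at least 1.5-fold on the log2(FPKM + 1) scale were 5 higher and 1 lower member in si1-BCLIN25 (8.7% and 5.42% of all genes) and 2 higher and 1 lower in si2-BCLIN25 (8.92% and 4.97%). The share of members that rose, 75% and 63.9%, lay above the share of all genes. The counts past 1.5-fold are small and moved with the scale: in both directions together, 6 members in si1-BCLIN25 became 4 under median centring and 8 with a pseudocount of 0.1, and 3 in si2-BCLIN25 stayed between 3 and 4 over the alternatives run. All 3 si1-BCLIN25 libraries stood above all si-NC libraries for 26 members and below them for 4, beside 39% and 25.7% of all genes. For si2-BCLIN25 these counts were 23 and 5, beside 40.5% and 26.6%.

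The median log2 fold change of the 36 members was 0.31 for the first siRNA and 0.22 for si2-BCLIN25, beside 0.06 in each over all genes. Within libraries, the members' median distance from the si-NC mean lay between 0.30 and 0.33 in the si1-BCLIN25 libraries and between 0.21 and 0.24 in the si2-BCLIN25 libraries on the log2 scale. Under quantile normalization the split of all calls moved, from 4731 higher and 3035 lower to 3797 and 3775 in si1-BCLIN25 and from 4756 and 3003 to 3814 and 3707 in si2-BCLIN25, and gave 27 higher and 4 lower members in si1-BCLIN25 and 20 and 5 in si2-BCLIN25. Both comparisons use the same 3 control libraries and are therefore not independent of each other. In bulk RNA, a change in the make-up of the cells and a change in RNA per cell cannot be told apart. Markers of other cells moved too: of 10 fibroblast markers 3 were tested and all 3 rose, with sums of 15.4 to 16.7 FPKM for si-NC, 27.9 to 29.8 FPKM for si1-BCLIN25 and 27.1 to 28.7 FPKM for si2-BCLIN25, while COL1A2 and COL3A1 stayed at or below 0.04 FPKM. Of 8 adipocyte markers 4 were tested, and 2 rose with the first siRNA and 3 with the other. Their sums were 26 to 30.6, 75.7 to 78.7 and 60.6 to 68.7 FPKM in the same order of groups, carried mainly by FABP4, with the defining ADIPOQ at or below 0.33 FPKM and PLIN1 at or below 0.16 FPKM. Of 10 leukocyte markers 7 were measured and 4 tested, of which either siRNA group showed 1 higher and 1 lower, with sums of 57.7 to 63, 46.2 to 47.4 and 41.8 to 42 FPKM. These sums were carried mainly by LAPTM5, at 53.2 to 58.0 FPKM in si-NC and 36.3 to 42.1 FPKM with either siRNA. The other leukocyte markers measured stayed at or below 3.22 FPKM. Over all genes tested, 38.4% and 38.6% were called higher and 24.6% and 24.4% lower. The part of these markers in the members' changes was not tested.

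**Figure D2:**
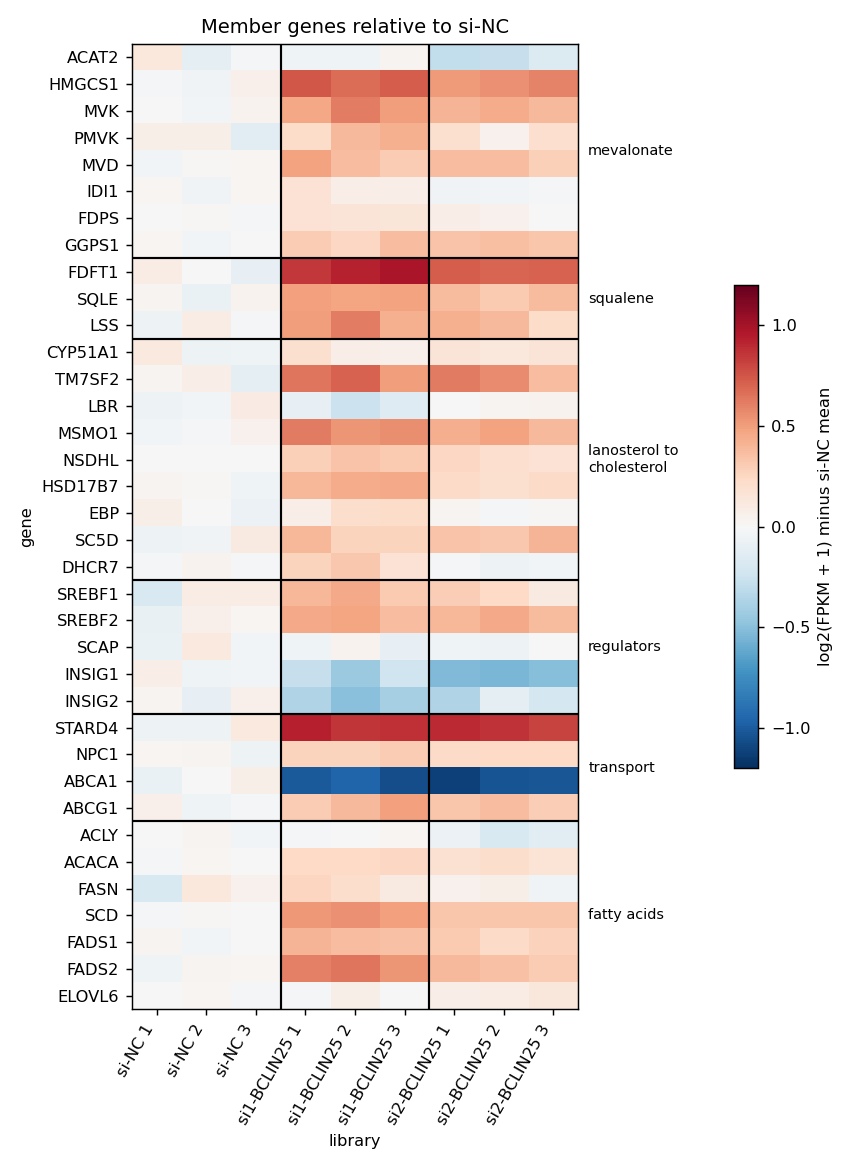
Each cell is log2(FPKM + 1) of a gene (row) in a library (column) minus the gene's mean over the 3 si-NC libraries, with black lines between roles and groups. Most rows are red in all 6 siRNA libraries, ABCA1, INSIG1 and INSIG2 are blue, and the red is generally paler in si2-BCLIN25.

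Among the enzymes that lead from acetyl-CoA to farnesyl and geranylgeranyl diphosphate, 7 of 8 were called higher in si1-BCLIN25 and none lower. In si2-BCLIN25, 4 were higher by the same test and 1 lower. The shares higher, 87.5% and 50%, stand beside 38.4% and 38.6% of all genes tested. The share lower in si2-BCLIN25, 12.5%, stands beside 24.4%. HMGCS1, which makes HMG-CoA, changed most. It read 38.8, 38.1 and 41.1 FPKM in the si-NC libraries, 66.4, 63.3 and 65.7 in those of si1-BCLIN25, and 56.4, 58.0 and 59.8 in those of si2-BCLIN25. The 3 groups stood apart, with si2-BCLIN25 between the others. Its log2 fold change was 0.71 in si1-BCLIN25 and 0.55 in si2-BCLIN25 (SE 0.04; limma adjusted p = 1.17e-08 and 1.37e-07). The mevalonate kinase MVK rose from 5.08 ± 0.16 FPKM to 7.75 ± 0.47 and 7.08 ± 0.17, and the decarboxylase MVD from 7.08 ± 0.17 to 9.56 ± 0.68 and 9.26 ± 0.33 (SD, n = 3 in each group here and below). GGPS1, which makes geranylgeranyl diphosphate for protein prenylation, rose from 17 ± 0.38 to 21.3 ± 0.9 and 21.9 ± 0.17 FPKM.

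FDPS, the farnesyl diphosphate synthase, had the highest mean level of the 36 genes over all 9 libraries, at 154 FPKM against 142 FPKM for FDFT1, whose group means were higher in si1-BCLIN25 (179 against 164 FPKM) and in si2-BCLIN25 (154 against 152 FPKM). It read 148, 148 and 144 FPKM in the si-NC libraries, 166, 163 and 162 in those of si1-BCLIN25, and 156, 153 and 148 in those of si2-BCLIN25. It rose in si1-BCLIN25, with a log2 change of 0.16 (SE 0.033; limma adjusted p = 0.00121), and was not called in si2-BCLIN25, whose libraries overlapped si-NC (0.05; limma adjusted p = 0.214). The phosphomevalonate kinase PMVK and the isomerase IDI1 likewise passed the threshold in si1-BCLIN25 alone, with log2 fold changes of 0.34 and 0.15 for PMVK and 0.11 and -0.03 for IDI1. For IDI1 the si1-BCLIN25 call was lost without si-NC replicate 2 (limma adjusted p = 0.0989) or si1-BCLIN25 replicate 1 (limma adjusted p = 0.129), within a range of 0.0229 to 0.206 over all alternatives. That call was also lost under median centring (limma adjusted p = 0.206) and with only the 2 groups compared (limma adjusted p = 0.0634). The PMVK value in si2-BCLIN25 passed the threshold without si2-BCLIN25 replicate 2 (limma adjusted p = 0.0389, range 0.0389 to 0.323). ACAT2, the thiolase that condenses acetyl-CoA, was at 66.4 ± 5.7 FPKM in si-NC and 65.2 ± 2.3 in si1-BCLIN25 and fell to 55.8 ± 2.9 in si2-BCLIN25.

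The 3 enzymes that make squalene and close it to lanosterol rose in both siRNA groups, where 38.4% and 38.6% of all genes tested rose. FDFT1, which joins farnesyl diphosphate into squalene, had the largest rise of any member in si1-BCLIN25 on the log2(FPKM + 1) scale. Its values were 100.2, 94.3 and 87.6 FPKM in the si-NC libraries, 170.1, 179 and 187 in those of si1-BCLIN25, and 156, 153 and 154 in those of si2-BCLIN25. No si-NC library reached an siRNA library, and each si1-BCLIN25 library lay above each si2-BCLIN25 library. The log2 fold changes were 0.92 and 0.71 (SE 0.049; limma adjusted p = 7.29e-09 and 8.76e-08), that is 1.9 and 1.64 times the si-NC mean. SQLE, the epoxidase that is a slow step of the route, rose from 67 ± 3.1 to 93.9 ± 0.42 and 86.2 ± 2.2 FPKM, and the cyclase LSS from 15.2 ± 0.9 to 22.2 ± 1.5 and 19.6 ± 1.5 FPKM.

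Of the 9 enzymes that turn lanosterol into cholesterol, si1-BCLIN25 had 7 that rose and 1 that fell. The count for si2-BCLIN25 was 6 higher and none lower. The shares higher, 77.8% and 66.7%, stand beside 38.4% and 38.6% of all genes tested. TM7SF2, a sterol reductase of the endoplasmic reticulum, read 4.46, 4.64 and 3.97 FPKM in the si-NC libraries, 7.37, 7.71 and 6.59 in those of si1-BCLIN25, and 7.24, 6.91 and 5.90 in those of si2-BCLIN25. All 6 siRNA libraries lay above si-NC and the siRNA groups overlapped. Its log2 fold changes were 0.62 and 0.52 (SE 0.079; limma adjusted p = 2.16e-05 and 9.64e-05). LBR, the lamin B receptor, which carries a reductase activity of the same kind, was at 74.4 ± 4.5 FPKM under si-NC, 66.1 ± 3.7 under si1-BCLIN25 and 75.7 ± 1.2 in si2-BCLIN25. LBR fell in si1-BCLIN25 (-0.17, limma adjusted p = 0.0105) and was not called in si2-BCLIN25 (0.03, limma adjusted p = 0.676). The si1-BCLIN25 call was lost without si1-BCLIN25 replicate 2 (limma adjusted p = 0.0507, range 0.00203 to 0.0507).

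MSMO1, the sterol methyl oxidase, rose from 23.5 ± 0.72 FPKM to 35.4 ± 1.2 and 32.2 ± 1.1, and NSDHL, which acts after it, from 27.9 ± 0.16 to 35 ± 0.64 and 32.3 ± 0.83. HSD17B7, the ketosteroid reductase of the same demethylation, read 12.1, 11.9 and 11.3 FPKM in the si-NC libraries, 15.8, 16.4 and 16.5 in those of si1-BCLIN25, and 14.0, 13.6 and 14.0 in those of si2-BCLIN25. The 3 groups were separate, and the rise was 0.43 and 0.22 on the log2 scale (limma adjusted p = 1.87e-06 and 0.000596). HSD17B7 and FDPS have near-identical pseudogenes, so their values are uncertain where reads are shared. Of the 36 members, 11 overlap another gene of the table in the RefSeq annotation, among them FADS1 with FADS2, MVK with MMAB and ABCA1 with NIPSNAP3B, and no source used here states whether counting used strand.

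DHCR7, the reductase of the final step, was called higher in si1-BCLIN25 and not in si2-BCLIN25. It read 33.3, 34.7 and 33.3 FPKM in the si-NC libraries, 40.8, 42.6 and 38.2 in those of si1-BCLIN25, and 33.4, 32.3 and 32.9 in those of si2-BCLIN25. The si1-BCLIN25 libraries stood above all the others, and si2-BCLIN25 overlapped si-NC. Its log2 fold changes were 0.25 (limma adjusted p = 0.000226) and -0.04 (limma adjusted p = 0.473; 95% interval -0.13 to 0.06). EBP, the sterol isomerase, read 100.1, 94.8 and 90.9 FPKM in the si-NC libraries, 101, 111 and 111 in those of si1-BCLIN25, and 97.2, 94.3 and 96.3 in those of si2-BCLIN25. It rose in si1-BCLIN25 (0.17, limma adjusted p = 0.00633) and its value of 0.01 in si2-BCLIN25 was not called. SC5D, the desaturase before DHCR7, rose by 0.31 and 0.36. The demethylase CYP51A1 was called in si2-BCLIN25 (0.14, limma adjusted p = 0.0285) and not in si1-BCLIN25 (0.11, limma adjusted p = 0.0724). That si2-BCLIN25 call was lost without si-NC replicate 2 or 3 or si2-BCLIN25 replicate 1 or 3, with limma adjusted p = 0.102, 0.0992, 0.0744 and 0.072 in that order (range 0.00218 to 0.148). Median centring also ended it (limma adjusted p = 0.148). The si1-BCLIN25 value passed without si-NC replicate 1 (limma adjusted p = 0.00583, range 0.00583 to 0.3).

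**Figure D3:**
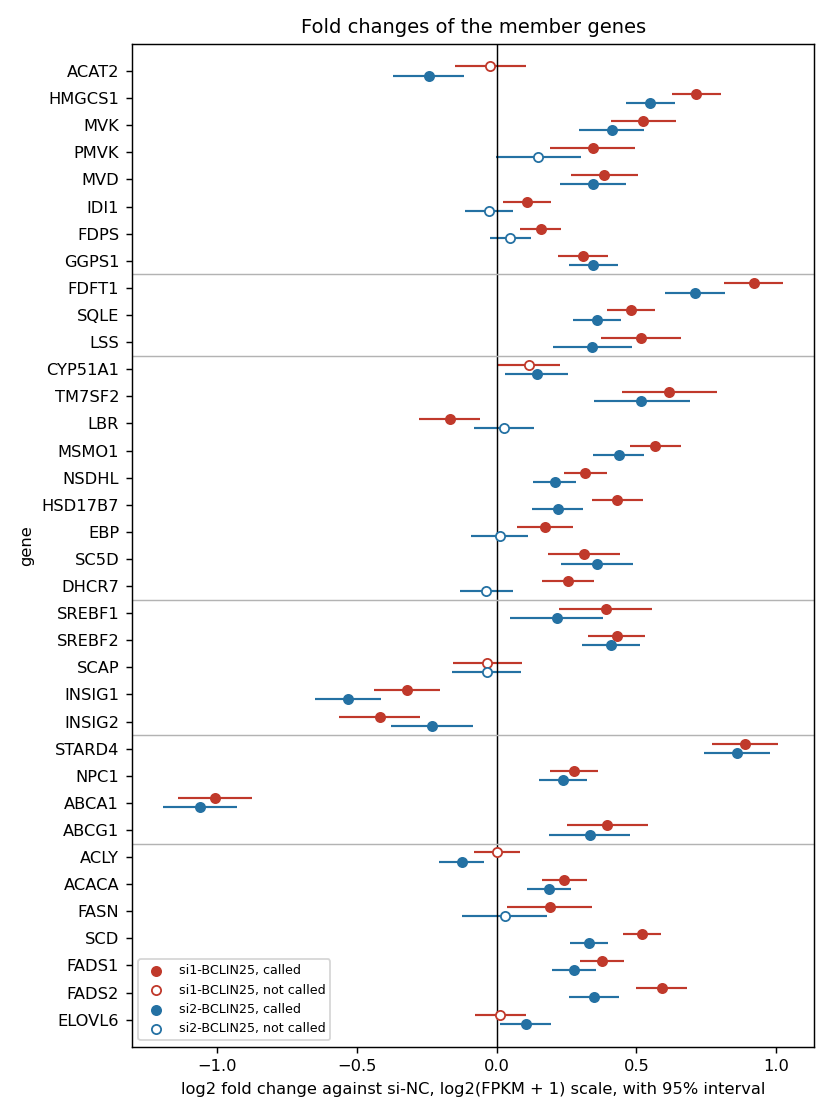
Log2 fold change against si-NC with its 95% interval for each member, red for si1-BCLIN25 and blue for si2-BCLIN25, filled where the limma adjusted p was below 0.05. FDFT1 and STARD4 reach furthest right, at 0.92 and 0.89 in si1-BCLIN25, and ABCA1 lies near -1 in both groups.

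The regulators divided. Both factor genes rose and both INSIG genes fell, while SCAP, the carrier between them, was not called in either group. In each siRNA group 2 of 5 regulators rose (40%), close to the 38.4% and 38.6% of all genes tested. The 2 of 5 that fell (40%) stand beside 24.6% and 24.4% of all genes. SREBF2 read 28.1, 31.5 and 30.7 FPKM in the si-NC libraries, 41.5, 42.0 and 39.0 in those of si1-BCLIN25, and 39.9, 41.4 and 39.3 in those of si2-BCLIN25. All siRNA libraries lay above si-NC and the siRNA groups overlapped. Its log2 fold changes were 0.43 and 0.41 (SE 0.047; limma adjusted p = 5.87e-06 and 9.48e-06). SREBF1 was lower in level: 8.01, 9.89 and 9.91 FPKM in the si-NC libraries, 12.5, 13.1 and 11.7 in those of si1-BCLIN25, and 11.5, 11.1 and 10.1 in those of si2-BCLIN25. It rose by 0.39 in si1-BCLIN25 (limma adjusted p = 0.000732) and by 0.22 in si2-BCLIN25 (limma adjusted p = 0.0274), where the lowest siRNA library stood just above the highest control. The si2-BCLIN25 call was lost without si-NC replicate 1 (limma adjusted p = 0.114) or si2-BCLIN25 replicate 1 or 2 (0.104 and 0.0731), and under quantile normalization (0.103), median centring (0.0698) and no filter (0.0602), within a range of 0.0165 to 0.114.

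INSIG1, itself a known target of the SREBF factors, moved against the enzymes. It read 33.5, 30.7 and 31.1 FPKM in the si-NC libraries, 25.99, 23.1 and 26.7 in those of si1-BCLIN25, and 21.6, 21.3 and 21.9 in those of si2-BCLIN25. The 3 groups stood apart and si2-BCLIN25 was lowest. The log2 fold changes were -0.32 and -0.53 (SE 0.054; limma adjusted p = 0.000219 and 2.92e-06). INSIG2, whose protein has the same role, read 15.7, 14.2 and 16.0 FPKM in the si-NC libraries, 11.7, 10.5 and 11.4 in those of si1-BCLIN25, and 11.7, 14.0 and 13.0 in those of si2-BCLIN25. It fell by 0.42 on the log2 scale in si1-BCLIN25 (limma adjusted p = 0.000148) and by 0.23 in si2-BCLIN25 (limma adjusted p = 0.00961), so the order of the siRNA groups was the reverse of that for INSIG1. The si2-BCLIN25 call rested on si2-BCLIN25 replicate 1, without which the limma adjusted p was 0.05 (range 0.00312 to 0.05). SCAP was at 14.1 ± 1.1, 13.8 ± 0.74 and 13.7 ± 0.36 FPKM, with log2 fold changes of -0.03 and -0.04; both turned positive without si-NC replicate 2, at 0.02 each.

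Sterol transport held both the largest fall and, in si2-BCLIN25, the largest rise. STARD4, a soluble carrier of cholesterol and a known SREBF2 target, read 7.98, 8.02 and 9.19 FPKM in the si-NC libraries, 16.9, 16.0 and 16.2 in those of si1-BCLIN25, and 16.5, 16.1 and 15.5 in those of si2-BCLIN25. All 6 siRNA libraries were well above the controls, and the siRNA groups overlapped. The log2 fold changes were 0.89 and 0.86 (SE 0.054; limma adjusted p = 2.64e-08 and 3.97e-08), that is 1.95 and 1.91 times the si-NC mean. NPC1, which moves cholesterol out of the lysosome, rose from 16.6 ± 0.63 FPKM to 20.3 ± 0.3 and 19.7 ± 0.11.

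The efflux pumps went opposite ways. ABCA1, which loads cholesterol onto apolipoprotein particles, read 6.38, 6.83 and 7.21 FPKM in the si-NC libraries, 2.89, 3.00 and 2.74 in those of si1-BCLIN25, and 2.59, 2.80 and 2.82 in those of si2-BCLIN25. No siRNA library came near a control. These changes, -1.01 and -1.06 in log2 (SE 0.061; limma adjusted p = 2.4e-08 and 1.61e-08), were the only falls of at least 1.5-fold among the members. ABCG1, the other LXR-driven pump, rose from 2.43 ± 0.14 FPKM to 3.52 ± 0.3 and 3.32 ± 0.11. The log2 changes were 0.40 and 0.33, on a scale that understates changes of genes at so low a level. Its si2-BCLIN25 call was lost under quantile normalization (limma adjusted p = 0.122, range 0.000406 to 0.122). NR1H3 and NR1H2, which encode the LXR receptors, were named after their values were seen. NR1H3 rose from a mean of 1.69 FPKM to 3.99 and 3.63 FPKM, and NR1H2, at 14, 16.1 and 15 FPKM, was not called in either group (0.19 and 0.09 on the log2 scale).

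**Figure D4:**
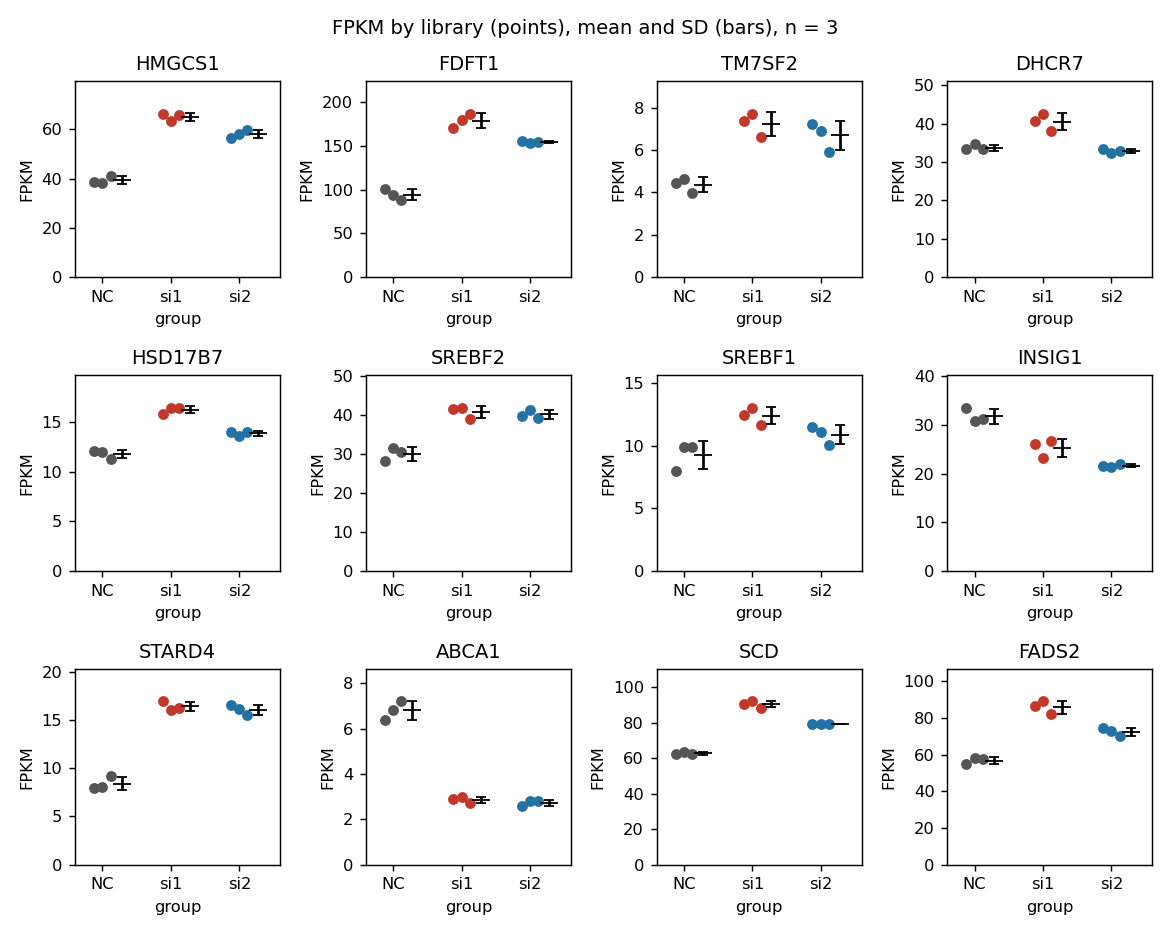
FPKM in each of the 9 libraries for 12 members (points, 3 per group) with the group mean and SD beside them; all axes start at 0. STARD4 sits near 16 FPKM in both siRNA groups, ABCA1 lies at or below 3 FPKM in all 6 siRNA libraries, and DHCR7, HSD17B7, SCD and FADS2 are lower in si2-BCLIN25 than in si1-BCLIN25.

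Of the 7 fatty acid enzymes, 5 were higher in si1-BCLIN25 with none lower. In si2-BCLIN25, 5 were higher and 1 was lower. The share higher, 71.4% in each group, stands beside 38.4% and 38.6% of all genes tested. The desaturases led. SCD, which makes monounsaturated fatty acids, read 62.2, 63.5 and 62.5 FPKM in the si-NC libraries, 90.6, 92.0 and 88.5 in those of si1-BCLIN25, and 79.2, 79.0 and 79.3 in those of si2-BCLIN25. The 3 groups were fully separate, and the log2 changes were 0.52 and 0.33 (SE 0.032; limma adjusted p = 2.49e-08 and 1.72e-06). FADS2, the first desaturase of polyunsaturated fatty acid synthesis, read 54.7, 57.9 and 57.6 FPKM in the si-NC libraries, 86.7, 89.1 and 82.1 in those of si1-BCLIN25, and 74.6, 72.8 and 70.2 in those of si2-BCLIN25. It too formed 3 separate groups, at 0.59 and 0.35 (SE 0.041; limma adjusted p = 9.49e-08 and 1.19e-05). FADS1, the desaturase that acts later in that route, rose from 63.2 ± 1.5 FPKM to 82.4 ± 1.8 and 76.7 ± 2.3.

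The enzymes that supply and extend saturated chains moved less. ACACA, the carboxylase that makes malonyl-CoA, rose from 16.7 ± 0.24 FPKM to 19.9 ± 0.12 and 19.1 ± 0.39. FASN, the synthase itself, was at 63.6 ± 7.1, 72.5 ± 4 and 64.7 ± 2.7 FPKM; it was called in si1-BCLIN25 (0.19, limma adjusted p = 0.0314) although its libraries overlapped si-NC, and not in si2-BCLIN25 (0.03, limma adjusted p = 0.744). The FASN call was lost when si-NC replicate 1, or either of si1-BCLIN25 replicates 1 and 2, was left out, with limma adjusted p = 0.123, 0.107 and 0.0791 (range 0.0075 to 0.123). It was also lost under median centring (limma adjusted p = 0.0832), with no filter (limma adjusted p = 0.0704) and without the variance trend (limma adjusted p = 0.0532). ACLY, which makes cytosolic acetyl-CoA from citrate, was at 102 ± 2.4 and 102 ± 1.4 FPKM in si-NC and si1-BCLIN25 and fell to 93 ± 3.7 in si2-BCLIN25 (-0.13, limma adjusted p = 0.0109). Without si2-BCLIN25 replicate 2 the ACLY call was lost (limma adjusted p = 0.0613, range 0.00157 to 0.0613). The elongase ELOVL6 barely passed in si2-BCLIN25 (0.10, limma adjusted p = 0.0459), and 12 of 17 alternatives ended that call, among them leaving out any of the 3 si-NC or 3 si2-BCLIN25 libraries or si1-BCLIN25 replicate 3 (limma adjusted p from 0.0376 to 0.306 over all alternatives).

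The contrast between the siRNAs asks whether both acted alike on these genes, and most members were lower in si2-BCLIN25. The libraries of the siRNA groups did not overlap for 25 of the 36 members, 23 with every si2-BCLIN25 library below every si1-BCLIN25 library and 2 (LBR and ELOVL6) above. Over all genes tested, 11.7% were separate in the lower and 14.1% in the higher direction. By role, the 23 comprised 6 of 8 enzymes up to farnesyl and geranylgeranyl diphosphate, 3 of 3 of squalene and lanosterol, 5 of 9 of the later steps, 2 of 5 regulators (INSIG1 and SREBF1), 1 of 4 transport genes (NPC1) and 6 of 7 fatty acid enzymes. The median difference, si2-BCLIN25 minus si1-BCLIN25, was -0.11 on the log2 scale over the members and 0.005 over all genes. The 95% interval of the difference lay below 0 for 20 members and above 0 for 2. These intervals are not adjusted for the number of genes. The share of all genes with such intervals was not counted, so these 2 counts cannot be set against it.

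After adjustment over all 12317 genes, 4 members were called lower in si2-BCLIN25 than in si1-BCLIN25 and 0 higher, where 0.309% and 0.276% of all genes were called, 72 in all. No member passed 1.5-fold in either direction, beside 0.0244% of all genes lower and 0.00812% higher. The 4 were DHCR7 (-0.29, SE 0.043, limma adjusted p = 0.0181), FADS2 (-0.24, SE 0.041, limma adjusted p = 0.0319), HSD17B7 (-0.21, SE 0.042, limma adjusted p = 0.049) and SCD (-0.19, SE 0.032, limma adjusted p = 0.0289). Leaving out si1-BCLIN25 replicate 1 or 3 left 1 member called, and leaving out si1-BCLIN25 replicate 2 or any of the 3 si2-BCLIN25 libraries left 0. The number of all genes called fell from 72 to 5 without si1-BCLIN25 replicate 2 or 3, to 3, 8 and 2 without si2-BCLIN25 replicate 1, 2 and 3, and rose to 132 and 111 without si-NC replicate 1 and 2. Over the alternatives the limma adjusted p ranged from 0.0134 to 0.102 for DHCR7, 0.0241 to 0.126 for FADS2, 0.0363 to 0.194 for HSD17B7 and 0.0239 to 0.127 for SCD, and the 4 log2 differences stayed negative under every alternative run.

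FDFT1, INSIG1, ACAT2 and HMGCS1 had differences of -0.21, -0.21, -0.22 and -0.16 with intervals below 0, but adjusted p between 0.0744 and 0.0952 in limma, and so are not called. Fitting only the 2 siRNA groups called FDFT1, ACAT2 and HMGCS1 as lower and LBR as higher. FDFT1 was also called without si-NC replicate 1 or 3 (limma adjusted p = 0.0427 and 0.0478, range 0.0309 to 0.248) and ACAT2 without si-NC replicate 1 (limma adjusted p = 0.0448, range 0.0378 to 0.293). STARD4, SREBF2 and ABCA1, whose changes against si-NC were among the clearest, overlapped between the siRNAs: their differences were -0.03 (95% interval -0.15 to 0.09), -0.02 (-0.12 to 0.08) and -0.05 (-0.19 to 0.08).

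**Figure D5:**
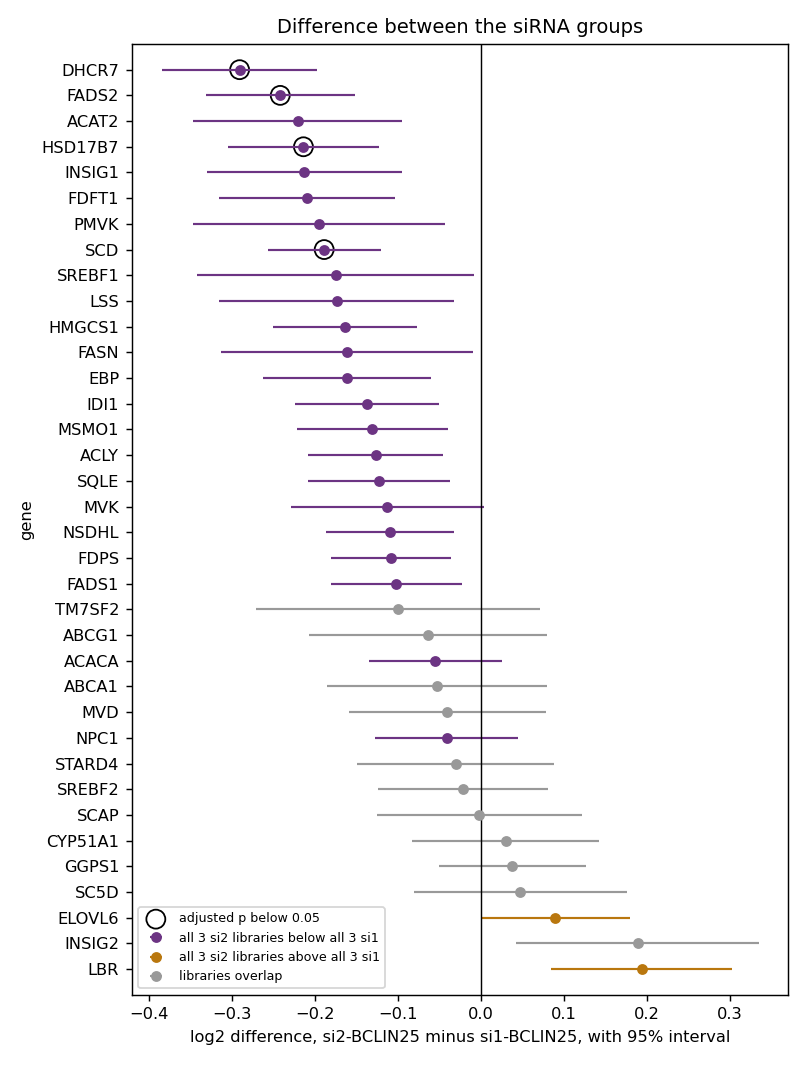
Difference of si2-BCLIN25 minus si1-BCLIN25 on the log2 scale with its 95% interval, members sorted by size; purple marks genes whose si2-BCLIN25 libraries all lay below the si1-BCLIN25 libraries, and rings the 4 called genes. The points lean left of 0, from -0.29 for DHCR7 to 0.19 for LBR.

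Other genes of lipid metabolism, from 3 lists beside the 36, are given for comparison, and no difference between lists was tested. Of 13 genes of the isoprenoid branch, which uses farnesyl and geranylgeranyl diphosphate for dolichol, ubiquinone and protein prenylation, none rose in si1-BCLIN25 while 8 fell. The corresponding counts for si2-BCLIN25 were 1 and 8. As shares, 0% and 7.69% rose and 61.5% fell in each, beside the 38.4% and 38.6% higher and 24.6% and 24.4% lower of all genes. NUS1, a subunit of the dolichol-forming prenyltransferase, fell from 46.5 to 37.2 and 41.9 FPKM. The protease ZMPSTE24 fell from 53.3 to 43.6 and 47 FPKM and the methyltransferase ICMT from 59.7 to 53.1 and 51.4 FPKM, both of which process prenylated proteins. Median log2 fold changes of this list were -0.16 and -0.17.

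Of 19 tested genes of SREBF processing and sterol traffic, 9 were called higher and 4 lower with the first siRNA (47.4% and 21.1%, beside 38.4% and 24.6% of all genes), and 9 higher and 6 lower with the other (47.4% and 31.6%, beside 38.6% and 24.4%). LIPA, the lysosomal acid lipase that frees cholesterol from its esters, rose from 15.3 to 28.4 and 30.7 FPKM. The HDL receptor gene SCARB1 rose from 18.5 to 31.8 and 30 FPKM, and ERLIN2, a membrane protein of the endoplasmic reticulum tied to sterol-regulated protein turnover, from 13.3 to 19.2 and 21.1 FPKM. In the other direction NPC2, which hands lysosomal cholesterol to NPC1 and was named after its values were seen, fell from 290 to 189 FPKM in both siRNA groups. Of 27 tested genes of fatty acid and glycerolipid synthesis, 13 were called higher and 7 lower with the first siRNA (48.1% and 25.9%), and 15 higher and 6 lower with the other (55.6% and 22.2%), beside the same shares of all genes. FABP5, a fatty acid carrier with several pseudogenes and so of uncertain value, rose from 239 to 545 and 503 FPKM, the elongase ELOVL4 from 5.99 to 10.1 and 11 FPKM and the acyltransferase DGAT2 from 4.18 to 8.3 and 8 FPKM. In the same list AGPAT2, ACSL5 and GPAM, enzymes of acyl-CoA and glycerolipid synthesis named after their values were seen, fell by 1.09, 0.90 and 0.68 on the log2 scale in si1-BCLIN25 and by 0.84, 0.75 and 0.54 in si2-BCLIN25. Between the siRNAs, si2-BCLIN25 libraries were wholly below si1-BCLIN25 for 1 of 13, 2 of 19 and 0 of 27 genes of these lists. These shares, 7.69%, 10.5% and 0%, stand beside 11.7% of all genes tested. Wholly above were 3, 3 and 8 genes (23.1%, 15.8% and 29.6%), beside 14.1% of all genes. By limma 0 of them were called in either direction, where 0.585% of all genes were called.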

How the data were processed

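RNA of 9 libraries was sequenced, 3 in each of 3 groups taken from the sample titles, and the deposited table holds FPKM per gene for each library, per the file headers. The submitters' processing notes name, without roles, DESeq2 1.4.5, RSEM 1.2.12, HISAT2 2.0.4 and Bowtie2 2.2.5. No source used here gives the genome build or annotation. Of 18064 gene identifiers, 17748 matched a symbol in a RefSeq table (GRCh38.p14). FPKM are not counts, so depth per library is unknown and no counting interval can be given.

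Genes reaching 1 FPKM in 3 or more libraries were tested on log2(FPKM + 1) with limma 3.58.1 (R 4.3.3; all 9 libraries, trended variance, two-sided, Benjamini-Hochberg over 12317 genes, threshold 0.05) in 3 contrasts. A fold change on this scale understates the change of low genes. The fit was tested on simulated data. Motifs were searched on both strands in RefSeq promoters.

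The members and lists were chosen with earlier results of these data known. Values in every library are given for members called in both siRNA groups with at least 1.5-fold in either, called between siRNAs, or lower in both, for SREBF1, SREBF2 and INSIG1, and for the 3 highest by mean FPKM. From each other list the 3 genes with the smallest p are named. Alternatives were 2 other normalizations, 2 filters, another pseudocount, no variance trend, only the groups compared, a replicate block and leaving out each library. Some genes of the pathway, and the targeted RNA, are not reported here, so the knockdown was not checked.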

Additional observations from a re-analysis of the deposited data

Results flagged for a closer look

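For 4 members the change against si-NC differed between the siRNA groups by the direct test of that difference. The difference, si2-BCLIN25 minus si1-BCLIN25 on the log2 scale, was -0.291 for DHCR7 (limma adjusted p = 0.0181), -0.242 for FADS2 (limma adjusted p = 0.0319), -0.214 for HSD17B7 (limma adjusted p = 0.049) and -0.189 for SCD (limma adjusted p = 0.0289). In each of the 4, all 3 si2-BCLIN25 libraries lay below all 3 si1-BCLIN25 libraries. Of these 4 calls, 0 were kept under every alternative run. The call was lost in 7 of 17 alternatives for DHCR7, 9 each for FADS2 and SCD, and 11 for HSD17B7. With 3 libraries a group, no library was tested as standing apart from its group.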

How the results depend on the processing

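Against si-NC, 25 of 27 higher and 3 of 4 lower members in si1-BCLIN25, and 19 of 23 and 3 of 5 in si2-BCLIN25, were called under every alternative run; between the siRNAs, 0 of 4 were. The members' median log2 fold change in si1-BCLIN25 and si2-BCLIN25 was 0.284 and 0.171 under quantile normalization, 0.266 and 0.166 under median centring and 0.335 and 0.234 with a pseudocount of 0.1. Leaving out 1 library gave 0.306 to 0.328 in si1-BCLIN25, 0.2 to 0.24 in si2-BCLIN25 and -0.13 to -0.101 between the siRNAs.

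Between the siRNAs, the 72 genes called became 3 with no filter, 110 with a minimum of 5 FPKM, 13 without the trend, 230 with only the 2 groups, and 2 to 132 leaving out 1 library. Members called lower were 0 with no filter or without the trend, 7 (and 1 higher) with only the 2 groups, and 0 to 6 leaving out 1 library. The cause was not tested.

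The replicate numbers gave no clear pairing of the samples. Same-numbered libraries correlated between -0.164 and 0.139 in their deviations from group means, and not every library correlated best with its own number. With 3 libraries a group, these correlations cannot exclude a pairing. With a replicate block, 6 genes and 0 members lower were called between the siRNAs, CYP51A1 passed in si1-BCLIN25 (limma adjusted p = 0.0385, range 0.00583 to 0.3) and ELOVL6 was lost in si2-BCLIN25 (limma adjusted p = 0.0629, range 0.0376 to 0.306).

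Direction turned only for values that were not called. Under quantile normalization ELOVL6 in si1-BCLIN25 was -0.01. Under median centring ACLY and ELOVL6 in si1-BCLIN25 were -0.047 and -0.036, and FDPS, LBR, EBP and FASN in si2-BCLIN25 -0.002, -0.026, -0.04 and -0.023. Leaving out 1 library each, uncalled log2 values that turned ranged in si1-BCLIN25 from -0.076 to 0.043 for ACAT2, -0.074 to 0.023 for SCAP, -0.015 to 0.019 for ACLY and -0.017 to 0.032 for ELOVL6. In si2-BCLIN25 they ranged from -0.005 to 0.074 for LBR, -0.022 to 0.047 for EBP, -0.075 to 0.021 for SCAP and -0.063 to 0.093 for FASN, and between the siRNAs from -0.081 to 0.009 for MVD and -0.033 to 0.037 for SCAP. FPKM without counts and 3 libraries a group limit the precision.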
